A study of Mus musculus with 42 samples.

Results

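The genes described here are 8 genes of cholesterol synthesis and its feedback control, namely Hmgcs1, Idi1, Fdft1, Sqle, Lss, Cyp51, Msmo1 and Insig1. They were taken by gene symbol from the deposited gene table, which held all 8 among its 47729 rows. All 8 also passed the filter on low values, together with 16605 other genes. None of the 8 encodes a lipoprotein receptor or a sterol transporter, so genes of cholesterol uptake are given from a separate list.

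The libraries came from subcutaneous tumours of Pan02, a mouse pancreatic adenocarcinoma line, in C57BL/6 mice, and the series was made to follow the tumour immune landscape under dipeptidyl peptidase inhibition. BXCL701, also called talabostat, inhibits DPP4, DPP8, DPP9 and fibroblast activation protein. The treated mice received 20 ug of BXCL701 per mouse daily by oral gavage, and their tumours were harvested 3 mice in each of 11 groups. Those on day 1, after a single dose, were taken at 1, 8 or 16 h, and those on days 7 or 14 at 0, 1, 8 or 16 h. Vehicle tumours were harvested at 0 h on days 1, 7 and 14, 3 mice in each group, and the extraction protocol names PBS as the control treatment. Days 7 and 14 therefore had both treatments at 0 h, whereas at 1, 8 and 16 h a difference from vehicle holds treatment and harvest hour together. All 42 mice bore the same tumour line and all libraries were of whole tumour, so fewer cells of a type and less RNA per cell cannot be told apart in any value below. The sources used here do not give the age of the mice.

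Cells make cholesterol from acetyl-CoA. HMG-CoA synthase, encoded by Hmgcs1, acts at the entry to the mevalonate part of the route, and Idi1 encodes the isomerase of the isoprenoid building block. Fdft1 encodes squalene synthase, which commits isoprenoids to sterols, Sqle the epoxidase that oxidises squalene, and Lss the cyclase that folds the product into lanosterol. Cyp51 encodes the demethylase of lanosterol and Msmo1 the methylsterol monooxygenase that acts on the following intermediates. The transcription factor SREBP2, encoded by Srebf2, raises most of these genes when membrane cholesterol is low, and Insig1, itself a target gene, holds the factor back in the endoplasmic reticulum when sterols are plentiful. Dividing cells need sterols for new membrane.

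The promoters of 6 of the 8 genes were available from RefSeq on GRCm38.p6, as windows of 300 bases that run from 250 bases before to 50 bases after the start. The windows of 3 genes are shown because Msmo1 was the gene that passed the test below, Idi1 had the largest difference, and Hmgcs1 and Msmo1 held the sequence TCACNCCA, which resembles the sterol regulatory element that SREBP binds. Capitals mark TCACNCCA and CCAAT, each searched on both strands (TGGNGTGA and ATTGG on the other strand). The windows are chr8:64733529-64733828 on the minus strand for Msmo1, chr13:119690101-119690400 on the plus strand for Hmgcs1 and chr13:8885356-8885655 on the plus strand for Idi1.
Msmo1: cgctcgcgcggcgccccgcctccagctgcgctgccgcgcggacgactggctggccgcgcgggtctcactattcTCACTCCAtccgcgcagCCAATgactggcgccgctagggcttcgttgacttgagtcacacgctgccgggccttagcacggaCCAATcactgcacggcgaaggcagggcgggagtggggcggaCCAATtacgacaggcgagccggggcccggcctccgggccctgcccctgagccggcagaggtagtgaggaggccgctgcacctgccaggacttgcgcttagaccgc
Hmgcs1: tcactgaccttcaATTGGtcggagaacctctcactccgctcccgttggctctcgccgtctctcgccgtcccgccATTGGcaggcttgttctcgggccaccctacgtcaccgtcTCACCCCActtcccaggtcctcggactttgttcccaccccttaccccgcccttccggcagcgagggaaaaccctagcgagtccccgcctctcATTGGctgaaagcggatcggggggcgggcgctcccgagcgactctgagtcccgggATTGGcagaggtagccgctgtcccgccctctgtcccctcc
Idi1: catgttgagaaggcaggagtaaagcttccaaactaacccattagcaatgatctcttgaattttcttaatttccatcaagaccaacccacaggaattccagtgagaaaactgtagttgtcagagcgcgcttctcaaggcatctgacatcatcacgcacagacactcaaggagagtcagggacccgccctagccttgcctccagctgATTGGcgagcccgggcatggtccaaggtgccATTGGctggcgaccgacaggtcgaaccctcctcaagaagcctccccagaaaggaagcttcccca
TCACNCCA occurred in 2 of the 6 windows and in 4.36% of 32851 mouse promoter windows of the same length. It began 177 bases before the RefSeq start of Msmo1 and 137 bases before that of Hmgcs1. The GENCODE start of Msmo1, on the minus strand at chr8:64733792, lies inside the window and ahead of this match. By that annotation the match is within the gene. CCAAT, the site bound by NF-Y, occurred in 6 of 6 windows and in 37.4% of all windows. GGGCGG, the GC box, also searched on both strands and not capitalised above, occurred in 6 of 6 and in 35.7%. No match of 1 motif overlapped a match of another in these windows (0 overlaps), and a match describes these letters and not binding.

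The genes lie on separate stretches of GRCm38, with GENCODE M21 positions. Hmgcs1 (chr13:119690379-119708260) and Idi1 (chr13:8885501-8892451) are far apart on chromosome 13, and Cyp51 (chr5:4081145-4104746) and Insig1 (chr5:28071363-28078662) on chromosome 5. Fdft1 is at chr14:63145150-63179578, Sqle at chr15:59315077-59331192, Lss at chr10:76531588-76557138 and Msmo1 at chr8:64718139-64733792. Sqle, Msmo1 and Insig1 overlap no other annotated gene. Cyp51 overlaps Akap9, Fdft1 overlaps Ctsb, and Lss, Idi1 and Hmgcs1 overlap 4930483K19Rik, Gm48574 and Gm48342 on the opposite strand. The sources used here do not say whether reads were counted by strand, so reads in those overlaps cannot be assigned with certainty.

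The deposited values are estimated reads per gene that had been scaled per library, called values here. They summed to 19133149 to 26633378 per library, which is not the read depth, and the depth is unknown. Of 8 tumour epithelium markers, the keratin genes Krt8 and Krt18 were highest, at 332 to 1114 and 210 to 1038 FPKM over the 42 libraries. Krt19 was at 13.1 to 97.1 FPKM. The others were lower, with medians of 7.41 FPKM for Krt7, 7.98 for Cdh1, 8.18 for Sox9 and 1.45 for Muc1. Epcam was at 0.043 to 7.25 FPKM. In 4 libraries the values leaned furthest with transcript length (an index of each library's slope on log2 exon length), namely replicate 3 of BXCL701 at 8 h on day 7 (-0.41), replicate 2 of BXCL701 at 0 h on day 7 (0.33), replicate 2 of vehicle on day 1 (-0.37) and replicate 2 of vehicle on day 7 (0.33). No 2 libraries were near-identical, with a highest correlation of 0.981. Each library was a separate mouse, and its replicate number is only a name.

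Per length, Sqle was the most abundant of the 8 genes and Lss the least in both treatments. Over the 33 BXCL701 libraries the mean levels were 41.9 ± 11.1 FPKM for Sqle, 34.3 ± 10.3 FPKM for Cyp51, 26.2 ± 8.32 FPKM for Hmgcs1 and 19.5 ± 4.61 FPKM for Msmo1 (SD, n = 33). Fdft1 followed at 18.9 ± 3.57 FPKM, Insig1 at 15.3 ± 3.57 FPKM, Idi1 at 9.85 ± 3.97 FPKM and Lss at 5.15 ± 1.20 FPKM (SD, n = 33). Over the 9 vehicle libraries the same order held, with 54.7 ± 10.8 FPKM for Sqle, 46.2 ± 16.0 FPKM for Cyp51, 38.8 ± 12.8 FPKM for Hmgcs1, 30.4 ± 6.52 FPKM for Msmo1, 25.7 ± 6.39 FPKM for Fdft1, 20.7 ± 3.80 FPKM for Insig1, 16.8 ± 5.80 FPKM for Idi1 and 6.76 ± 1.69 FPKM for Lss (SD, n = 9). Neighbours in this order overlapped. Msmo1 was above Fdft1 in 18 of 33 BXCL701 libraries, so the order of these 2 genes was not fixed, whereas Insig1 was above Idi1 in 33 of 33 BXCL701 libraries and Idi1 above Lss in 9 of 9 vehicle libraries.

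At 0 h on days 7 and 14, the hour with tumours of both treatments, all 8 genes were lower on average in BXCL701 tumours, a direction that 53.4% of all genes shared, and 1 of them, Msmo1, fell past the threshold. Differences are in log2(value + 1) with standard errors, from a linear model with limma over all 42 libraries, and p-values were adjusted by the Benjamini-Hochberg method over the 16613 genes tested, with a threshold of 0.05. Among all genes 6 fell (0.0361%) and 79 rose. At an unadjusted p under 0.05, 8 of 8 were lower, against 643 of all genes (3.87%). The median difference of the 8 was -0.57, and that of all genes tested was -0.02.

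Msmo1, the methylsterol monooxygenase, was at 798, 490.0 and 574 on day 7 and at 898, 736 and 659.9 on day 14 in BXCL701 tumours. In vehicle tumours it was at 1202, 1015 and 899.6 on day 7 and at 1273, 1419.7 and 879.7 on day 14. Within each day only 1 pair of values, both on day 14, crossed between the treatments. Of the 6 BXCL701 libraries, 5 lay below every vehicle library, and the share of all genes with that pattern was not computed. Full separation at 0 h on day 7, with BXCL701 lower, was shared by 3.1% of all genes. The difference was -0.69 (SE 0.16, limma adjusted p = 0.0465), 0.619 times the vehicle level. That call lay close to the threshold: it held without BXCL701 day 7 replicate 1 (adjusted p = 0.0475) and without vehicle day 14 replicate 3 (adjusted p = 0.00615), and not in the other 10 fits that left out 1 library (adjusted p = 0.0568 to 0.202, difference -0.61 to -0.75). With the 4 libraries furthest out on the transcript-length index left out, the difference was -0.62 (limma adjusted p = 0.207), and over all 10 processing alternatives the adjusted p ran from 0.0163 to 0.547.

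Idi1, the isomerase, differed most. It was at 753, 451 and 510.0 on day 7 and at 724, 454 and 387 on day 14 in BXCL701 tumours, against 1289, 1238 and 896 on day 7 and 1144, 1650.3 and 701 on day 14 in vehicle tumours. The treatments did not overlap on day 7, as for 3.1% of all genes with BXCL701 lower, and overlapped on day 14 through vehicle replicate 3. The difference was -1.07 (SE 0.32, limma adjusted p = 0.115), 0.476 times the vehicle level, and did not pass the test. Its 95% interval ran from -1.72 to -0.42.

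Hmgcs1, the entry enzyme, ranged from 1247 to 2026 with a median of 1640.4 in the 6 BXCL701 tumours and from 1634 to 3642 with a median of 2855 in the 6 vehicle tumours. The difference was -0.75 (SE 0.28, limma adjusted p = 0.252). Fdft1, squalene synthase, ranged from 529 to 1300.2 (median 937) in BXCL701 tumours and from 956 to 1901 (median 1414) in vehicle tumours, a difference of -0.60 (SE 0.18, limma adjusted p = 0.110). Both genes overlapped between treatments. Lss, lanosterol synthase, ranged from 375 to 599 (median 437) in BXCL701 tumours and from 469.7 to 786 (median 636) in vehicle tumours, with a difference of -0.48 (SE 0.14, limma adjusted p = 0.0972).

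The squalene epoxidase Sqle ranged from 1649.7 to 3021 (median 2172) in BXCL701 tumours and from 2463 to 4104 (median 3098) in vehicle tumours, with a difference of -0.50 (SE 0.24, limma adjusted p = 0.444). Cyp51, the lanosterol demethylase, ranged from 2170.3 to 3318 (median 2417) in BXCL701 tumours and from 2320.3 to 6037 (median 3859) in vehicle tumours, with a difference of -0.54 (SE 0.23, limma adjusted p = 0.361). Insig1, the feedback regulator, ranged from 674 to 944 (median 769) in BXCL701 tumours and from 884 to 1347 (median 1153) in vehicle tumours, with a difference of -0.51 (SE 0.19, limma adjusted p = 0.264). None of the 8 genes had all 6 BXCL701 libraries below all 6 vehicle libraries, a pattern that 0.271% of all genes showed. With a covariate for the transcript-length index, 5 of the 8 fell, Hmgcs1 (-0.78, limma adjusted p = 0.0217), Idi1 (-1.09, 0.0184), Fdft1 (-0.58, 0.0217), Lss (-0.49, 0.0326) and Msmo1 (-0.70, 0.0163), and 613 of all genes were called in that fit.

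**Figure D1:**
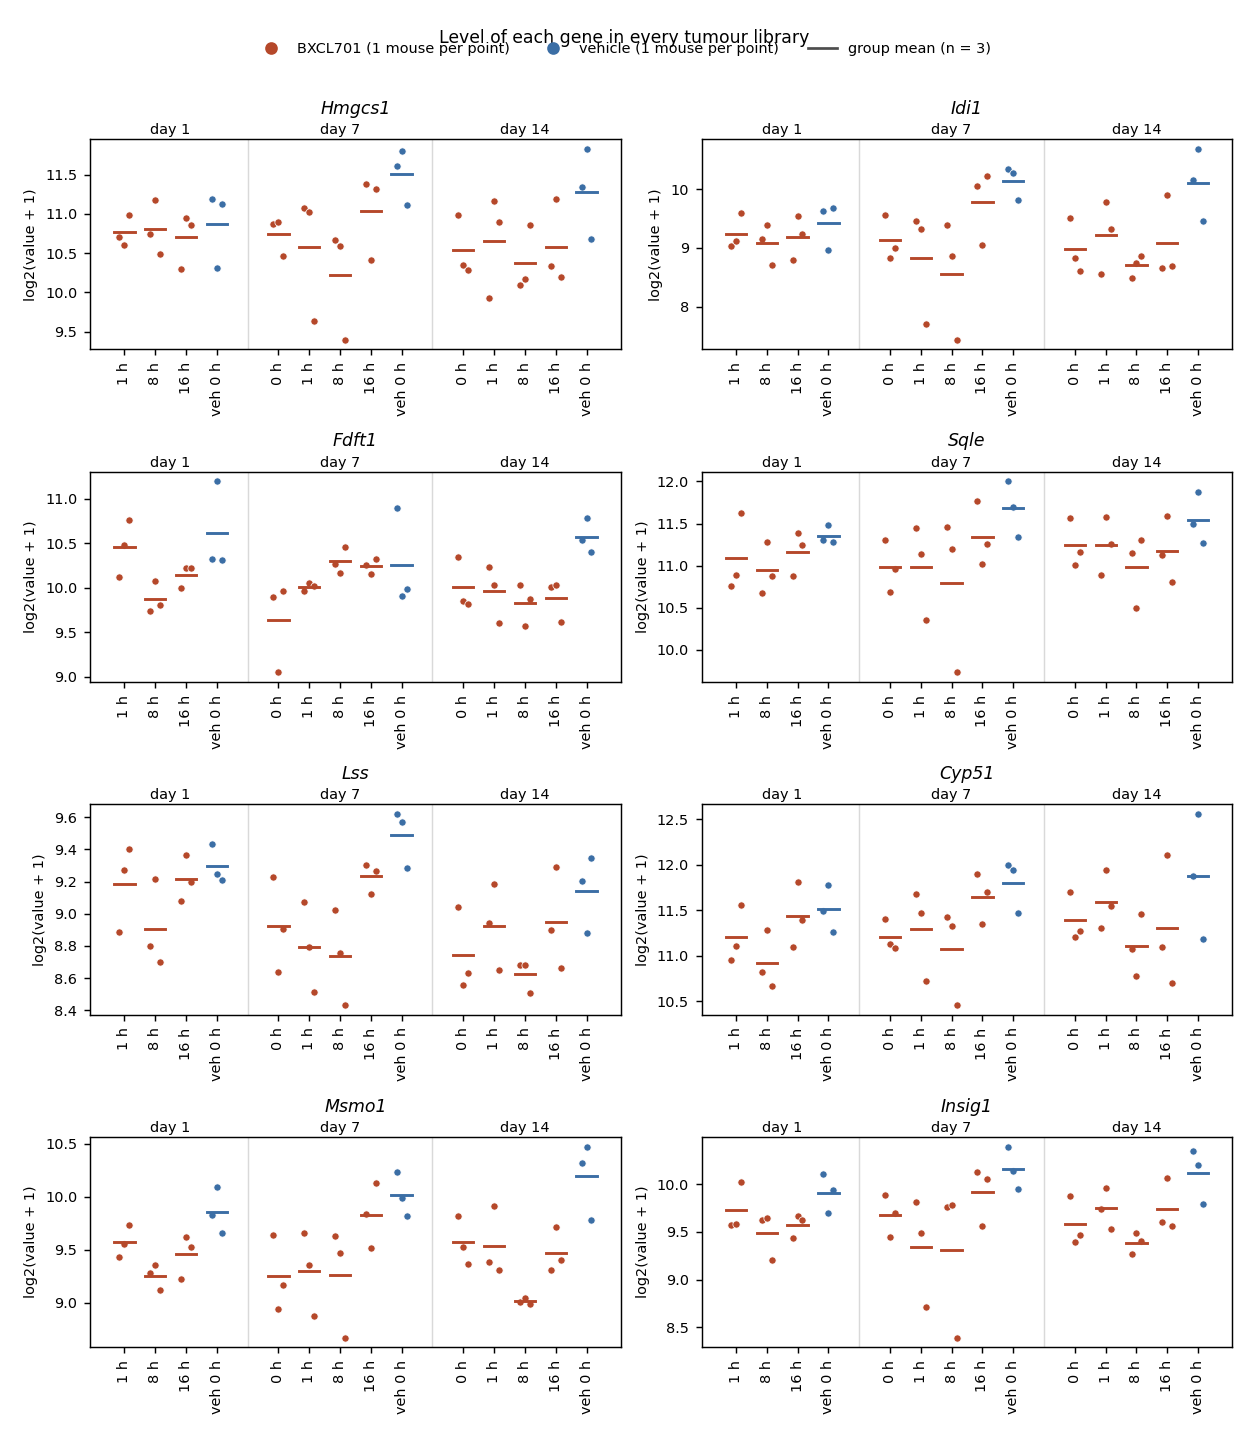
Level of each of the 8 genes, as log2(value + 1), in all 42 libraries by day and harvest hour, with BXCL701 tumours left of the vehicle tumours (veh) of each day. Points are single mice and bars are group means of 3 mice; the axes of the panels differ and do not start at 0. BXCL701 means lie below the same-day vehicle mean in every panel and group but 1, Fdft1 at 8 h on day 7.

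Over all harvest hours of day 14, 12 BXCL701 tumours against 3 vehicle tumours, Msmo1 again was the 1 gene of the 8 that fell. Among all genes 171 fell (1.03%) and 376 rose. Msmo1 ranged from 507 to 963 with a median of 662.5 in BXCL701 tumours, against 1273, 1419.7 and 879.7 in vehicle tumours. Of the 12 BXCL701 libraries, 10 lay below every vehicle library, a pattern whose share over all genes was not computed. The difference was -0.79 (SE 0.18, limma adjusted p = 0.0156), or 0.577 times the vehicle level. It did not pass without vehicle replicate 1 (-0.73, adjusted p = 0.0823) or without vehicle replicate 2 (-0.65, adjusted p = 0.469), and without vehicle replicate 3 the level fell by 0.998 on the log2 scale (adjusted p = 0.00198). The adjusted p over the 10 processing alternatives ran from 0.00312 to 0.121. At an unadjusted p under 0.05, 6 of the 8 genes were lower, against 8.08% of all genes. All 8 were lower on average, as were 51.6% of all genes. The median difference was -0.59 for the 8 genes and -0.01 for all genes. These tumours include the 0 h tumours of day 14 already described, so this comparison and the 0 h comparison share libraries.

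Fdft1 came closest to the threshold among the others on day 14. All 12 BXCL701 libraries, at 759 to 1300.2 with a median of 981, lay below the vehicle libraries at 1481, 1766 and 1347, as they did for 0.476% of all genes. The difference was -0.65 (SE 0.20, limma adjusted p = 0.0567). Idi1 differed by -1.11 (SE 0.36, adjusted p = 0.0783) and Hmgcs1 by -0.75 (SE 0.31, adjusted p = 0.189). The differences of Sqle, Lss, Cyp51 and Insig1 ran from -0.33 to -0.52, with limma adjusted p from 0.202 to 0.494. With a covariate for the transcript-length index, 5 of the 8 fell on day 14 (Hmgcs1, Idi1, Fdft1, Msmo1 and Insig1, adjusted p = 0.00312 to 0.0264), in a fit that called 2967 of all genes.

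On day 7, all 8 genes were lower on average in the 12 BXCL701 tumours than in the 3 vehicle tumours, as were 52.9% of all genes, and none passed. Among all genes 1 passed in either direction (0.00602%). At an unadjusted p under 0.05, 6 of the 8 genes were lower, against 4.12% of all genes, and the median difference was -0.60, against -0.03 for all genes. The largest differences were those of Idi1 (-1.07, SE 0.36, limma adjusted p = 0.462) and Hmgcs1 (-0.86, SE 0.31, adjusted p = 0.468), and the smallest was that of Fdft1 (-0.21, SE 0.20, adjusted p = 0.595). For Lss, 11 of 12 BXCL701 libraries lay below every vehicle library, with a difference of -0.57 (SE 0.16, adjusted p = 0.386). How many of all genes came as near to separation was not computed, and 0.289% had all 12 below. Replicate 3 of BXCL701 at 8 h, a library of extreme transcript-length index, was the lowest BXCL701 library of the series for Hmgcs1 (673), Idi1 (172), Sqle (847), Lss (344), Cyp51 (1404), Msmo1 (406) and Insig1 (334), and for Fdft1 it was the highest BXCL701 library of day 7 (1406).

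On day 1, after a single dose, the differences of the 9 BXCL701 tumours from the 3 vehicle tumours were all negative, from -0.12 for Hmgcs1 to -0.45 for Fdft1, and none of the 8 genes passed, as none of all genes did (0%). Of all genes 46.5% were lower. At an unadjusted p under 0.05, 2 of the 8 were lower, Fdft1 (-0.45, SE 0.20, limma adjusted p = 0.906) and Msmo1 (-0.43, SE 0.19, limma adjusted p = 0.906), against 175 of all genes (1.05%), with 262 higher. The median of the 8 was -0.30 and that of all genes 0.03. The difference between days was tested directly at 1, 8 and 16 h, in a contrast chosen after the single days were seen. For Idi1, the BXCL701 minus vehicle difference on day 7 minus that on day 1 was -0.84 (95% interval -1.91 to 0.23, limma adjusted p = 0.304). For Msmo1, the same on day 14 minus that on day 1 was -0.42 (95% interval -0.97 to 0.13, adjusted p = 0.999). None of the 8 passed in either contrast, nor did any gene (0%), whereas at an unadjusted p under 0.05 1666 genes were lower and 2206 higher for day 7, and 376 lower and 544 higher for day 14. Between days 14 and 7 at 0 h, the change ran from -0.11 for Idi1 to 0.39 for Sqle, and none passed (limma adjusted p = 1 for each, 0% of all genes, with 134 lower and 326 higher at an unadjusted p under 0.05).

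**Figure D2:**
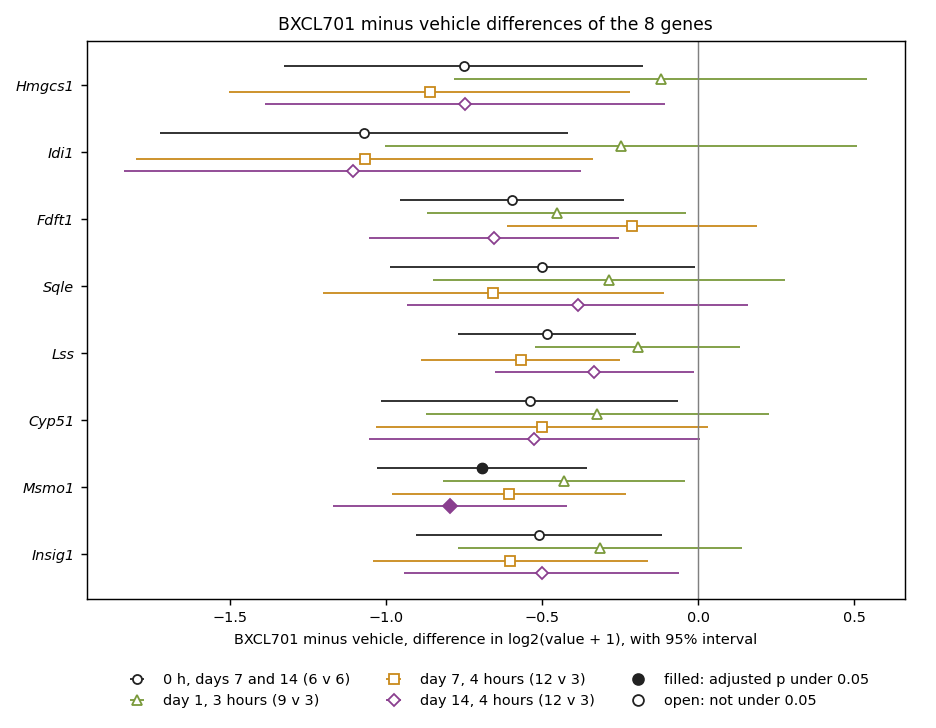
BXCL701 minus vehicle difference of each of the 8 genes in log2(value + 1), with 95% intervals, at 0 h on days 7 and 14 and over the harvest hours of days 1, 7 and 14. All 32 points lie below 0, and the filled points, Msmo1 at 0 h (-0.69) and on day 14 (-0.79), have adjusted p under 0.05.

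With the 3 days weighted equally, a comparison chosen after the single days were seen, Msmo1 fell by 0.61 on the log2 scale (SE 0.11, limma adjusted p = 0.00699), among 3 genes that fell in all (0.0181%). All 8 were lower on average, as were 54.1% of all genes. Msmo1 passed in each of 42 fits that left out 1 library (adjusted p = 0.00082 to 0.0371). It did not pass with the proliferation covariate (-0.36, adjusted p = 0.171) or with the macrophage covariate (-0.49, adjusted p = 0.0524). The other 7 genes differed by -0.37 for Lss to -0.81 for Idi1, with limma adjusted p from 0.0633 to 0.220. Of the 11 BXCL701 harvest groups, 11 had a lower mean than same-day vehicle for 7 of the genes and 10 for Fdft1, and 0.71% of all genes were lower in all 11. These 11 comparisons share 9 vehicle tumours and so do not repeat each other. In single harvest groups of 3, Msmo1 passed at 8 h on day 14, where 100 of all genes fell (0.602%). It was at 512, 525 and 507 in the BXCL701 tumours, a narrow span below all 3 vehicle tumours of that day. Such a separation was shared by 6.2% of all genes. The Msmo1 difference was -1.18 (SE 0.23, limma adjusted p = 0.0124). No other member passed in any single group. The share of all genes that passed in either direction was 0%, 0% and 0.012% at 1, 8 and 16 h on day 1. It was 0%, 0%, 0.301% and 0% at 0, 1, 8 and 16 h on day 7, and 0.783%, 0.789%, 1.25% and 0.0722% at the same hours on day 14.

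Among BXCL701 tumours of days 1, 7 and 14 together, all 8 genes had their lowest mean at 8 h of the 3 hours shared by these days, and no difference between hours passed the test. The pattern did not hold on every day. Hmgcs1 on day 1 and Fdft1 on day 7 had their highest mean of these hours at 8 h. The share of all genes with their lowest mean at 8 h was not computed, so the count for the 8 genes has no background beside it. The 8 h tumours include replicate 3 of day 7, of extreme transcript-length index (-0.41). That library was the lowest BXCL701 library of the series for each of the 8 genes but Fdft1. Over days 1, 7 and 14, Msmo1 ranged from 598 to 1115 (median 737) at 16 h and from 406 to 793 (median 557) at 8 h, a difference of 0.41 (SE 0.13, limma adjusted p = 0.324). Lss ranged from 405 to 659.7 (median 586) at 16 h and from 344 to 594 (median 415) at 8 h, a difference of 0.38 (SE 0.11, limma adjusted p = 0.274). All 8 genes were higher on average at 16 h than at 8 h, by 0.09 for Fdft1 to 0.57 for Idi1, as were 55.1% of all genes, and 38 of all genes passed in that comparison (0.229%). Against 0 h on days 7 and 14, the median difference of the 8 was 0.00 at 1 h (0.012% of all genes passed), -0.25 at 8 h (0.132%) and 0.22 at 16 h (0.00602%), and none of the 8 passed. Fdft1 was the 1 gene higher on average at 8 h than at 0 h (0.24). Vehicle tumours gave no call over time either. Day 14 minus day 1 ran from -0.15 for Lss to 0.68 for Idi1 in vehicle tumours (0.0602% of all genes passed), and day 14 minus day 7 ran from -0.13 for Fdft1 to 0.14 for Sqle in BXCL701 tumours (0.012%).

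The other enzymes of the route had the same direction as the 8 genes on average, and 1 of them passed. On day 14, 13 of the 14 other enzymes measured were lower in BXCL701 tumours, against 51.6% of all genes, with a median of -0.44. Fdps fell, as did 1.03% of all genes. Fdps, which encodes the synthase of farnesyl diphosphate, the substrate of Fdft1, ranged from 901 to 2162 (median 1477) in 12 BXCL701 tumours and from 2358 to 3105 (median 2873) in 3 vehicle tumours. The groups did not overlap, as for 0.476% of all genes with BXCL701 lower. The Fdps difference was -0.93 (SE 0.25, limma adjusted p = 0.0354). Dhcr7, a reductase at the end of the route, differed by 0.00 (SE 0.17). At 0 h on days 7 and 14, 13 of 14 were lower with a median of -0.43, 6 at an unadjusted p under 0.05, and none passed. Of all genes 53.4% were lower there, and 3.87% were lower at that unadjusted p. The Fdps call did not hold without vehicle day 14 replicate 1 (adjusted p = 0.129) or 2 (adjusted p = 0.536), nor without BXCL701 replicate 3 at 0 h (adjusted p = 0.0559), replicate 2 at 8 h (adjusted p = 0.0541) or replicate 3 at 16 h (adjusted p = 0.0513). It also did not hold without the filter (0.0615), in the libraries of day 14 alone (0.135), or with the proliferation (0.115) or macrophage covariate (0.180), where these values are adjusted p.

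No gene of uptake and intracellular transport passed at 0 h or on any day. At 0 h on days 7 and 14, 5 of the 10 measured were lower, with a median of -0.08, as were 8 of 10 on day 7, 7 of 10 on day 14 and 6 of 10 on day 1. Npc1l1, the intestinal cholesterol transporter, did not pass the filter on low values. Stard4, a cytosolic sterol carrier, differed by -0.65 (SE 0.25, limma adjusted p = 0.285), and Mylip, a ubiquitin ligase that lowers lipoprotein uptake, by 0.48 (SE 0.28, adjusted p = 0.601). Of the 6 genes that control SREBP, 3 were lower and none passed; Srebf2 differed by -0.24 (SE 0.17, adjusted p = 0.705) and Scap, the escort of SREBP, by 0.13 (SE 0.15, adjusted p = 0.870). Of 10 fatty acid synthesis genes, 5 were lower at 0 h, 5 on day 14, 9 on day 7 and 8 on day 1, and none passed. Fasn, the fatty acid synthase, differed by 0.47 (SE 0.27, adjusted p = 0.564).

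Genes of sterol efflux, storage and LXR, the oxysterol receptor, were mostly higher on average at 0 h, 7 of 8 with a median of 0.28, against 46.6% of all genes, and 1 rose, against 0.476% of all genes. On day 14, 7 of 8 were higher (median 0.33), on day 7 5 of 8 (median 0.21) and on day 1 4 of 8 (median -0.0087), and none rose on days 7 and 1. Abcg1, which exports cholesterol to lipoproteins, ranged from 553 to 728 (median 665) in 6 BXCL701 tumours and from 179 to 526 (median 367) in 6 vehicle tumours. The groups did not overlap, and the share of all genes with all BXCL701 libraries above all vehicle libraries was not computed. The Abcg1 difference was 0.97 (SE 0.23, limma adjusted p = 0.0448). On day 14 Abcg1 rose by 0.98 (SE 0.25, adjusted p = 0.0289). Apoe, the lipoprotein component that carries exported cholesterol, differed by 0.77 at 0 h (SE 0.28, adjusted p = 0.227) and Nr1h3, the LXR alpha gene, by 0.69 (SE 0.38, adjusted p = 0.546). The 0 h call of Abcg1 held in 1 of 12 fits that left out 1 library, the 1 without vehicle day 14 replicate 3 (adjusted p = 0.00113), and had adjusted p = 0.0667 to 0.202 in the other 11. The day 14 call did not hold without vehicle replicate 1 (0.70, adjusted p = 0.231) or 2 (0.75, adjusted p = 0.594), and the difference was 1.48 without vehicle replicate 3 (adjusted p = 0.000374). With the macrophage list as a covariate the day 14 difference was 0.35 (adjusted p = 0.469).

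**Figure D3:**
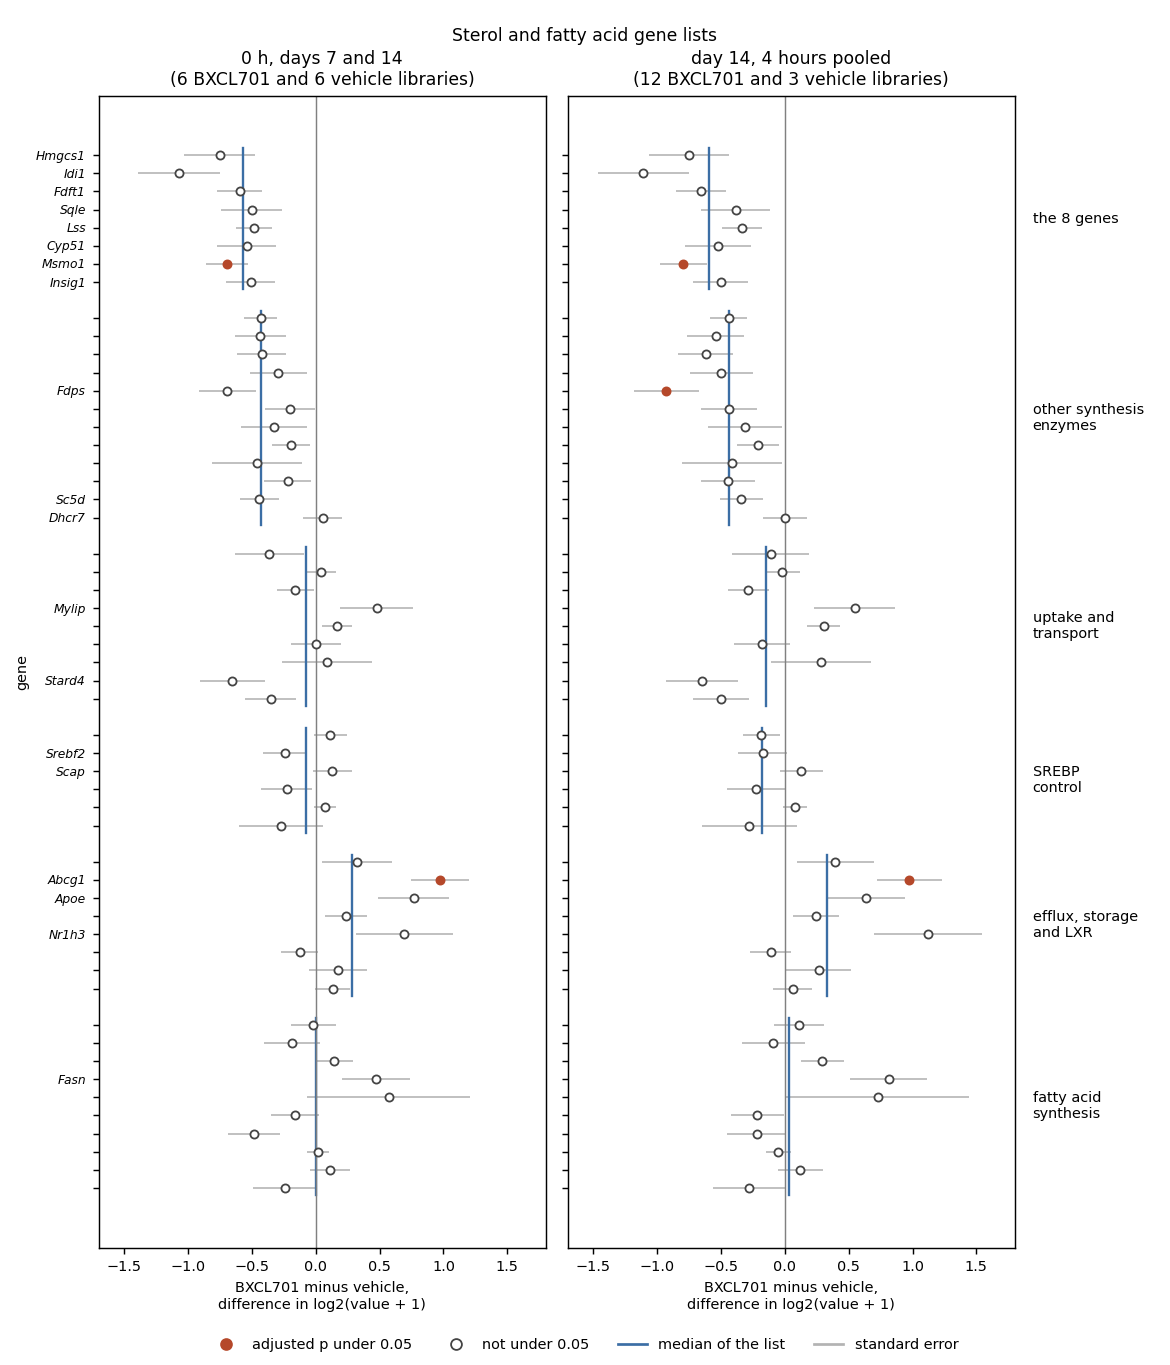
BXCL701 minus vehicle difference in log2(value + 1) with standard errors, for the 8 genes and 5 further lists, at 0 h on days 7 and 14 (left) and over 4 harvest hours of day 14 (right). Filled points have adjusted p under 0.05 (Msmo1 and Abcg1 in both panels, Fdps at right), and vertical lines are medians over all genes tested of a list, not all of which are drawn or named, at -0.57 for the 8 genes and 0.28 for the efflux list at 0 h.

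Among markers of dividing cells and of other cell types, some neutrophil markers passed at 0 h, and no marker of the other lists did. Of 14 proliferation genes, 14 were lower at 0 h on days 7 and 14 and none passed (median -0.43). Their summed value was 17062 to 24344 in 6 BXCL701 tumours and 24396 to 30866 in 6 vehicle tumours, with no overlap. Over all hours of day 14 these sums did overlap, at 18740 to 31493 in BXCL701 and 24396 to 29143 in vehicle tumours, as they did on days 1 and 7. Of 10 macrophage markers, 10 were higher and none passed (median 0.50), with sums of 47358 to 69572 in BXCL701 tumours and 32369 to 52949 in vehicle tumours. Of 12 neutrophil markers, 12 were higher and 5 rose (median 1.34), with sums of 6339 to 10535 in BXCL701 tumours and 2546 to 4896 in vehicle tumours. Of all genes 0.476% rose. The neutrophil marker Camp was below a value of 1 in every vehicle library. It passed the filter through BXCL701 tumours alone, so its direction carries no weight. Of 12 keratinocyte markers, 12 were lower and none passed (median -0.53), with sums of 1035 to 16239 in BXCL701 tumours and 1291 to 36537 in vehicle tumours. None passed either among markers of skeletal muscle (9 of 14 lower, median -0.22), adipocytes (9 of 10 higher, median 0.61), sebaceous gland (6 of 10 lower, median -0.65), tumour epithelium (5 of 8 higher, median 0.10) or fibroblasts (4 of 8 lower, median -0.03). On day 14 the medians were -0.25 for proliferation (13 of 14 lower), 0.49 for macrophages (2 of 10 rose), 1.49 for neutrophils (7 of 12 rose) and -1.40 for keratinocytes (12 of 12 lower, none passed). Of all genes 2.26% rose on day 14, and 2 of the neutrophil markers were below a value of 1 in all 3 vehicle tumours of that day. On day 7 no marker passed, and the medians were -1.74 for keratinocytes (12 of 12 lower), -1.15 for sebaceous gland (7 of 10 lower), -0.30 for proliferation (13 of 14 lower), 0.33 for macrophages (6 of 10 higher), 0.58 for neutrophils (12 of 12 higher) and 0.61 for skeletal muscle (12 of 14 higher). No proliferation or macrophage marker was below a value of 1 in all libraries of either treatment, and the part of these lists in the result was not tested. With the mean of the proliferation list as a covariate, the Msmo1 difference was -0.30 at 0 h (limma adjusted p = 0.547) and -0.55 on day 14 (adjusted p = 0.0357), and the median of the 8 genes at 0 h was -0.25. With the mean of the macrophage list, the Msmo1 difference was -0.54 at 0 h (adjusted p = 0.167) and -0.58 on day 14 (adjusted p = 0.121), and the median at 0 h was -0.38. Vehicle day 14 replicate 3, whose omission gave 3 calls among the 8 genes at 0 h and 4 on day 14 (among 807 and 2021 of all genes called in those fits), was the vehicle library of that day with the lowest value of 7 of the 8 genes, among them Msmo1 (879.7), Idi1 (701) and Cyp51 (2320.3). It had the highest Lss (651, against 588 and 469.7 in the other 2) and the highest macrophage mean (11.33, against 10.68 and 10.23 in the other 2, on the log2 scale).

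Within groups, the genes varied together from tumour to tumour, with Fdft1 apart. On deviations from group means over 42 libraries, given as a description since all genes share the same libraries, the highest Pearson correlation of a pair was 0.94, for Hmgcs1 and Idi1, and that of Sqle and Cyp51 was 0.87. Each gene but Fdft1 correlated with the mean of the other 7 at 0.69 (Lss) to 0.90 (Sqle), and Fdft1 at 0.31. Fdft1 and Hmgcs1 had a correlation of -0.01, and of 0.18 with the 4 libraries furthest out on the length index left out. That index correlated with Hmgcs1 at 0.74, with Idi1 at 0.62, with Insig1 at 0.55 and with Fdft1 at -0.58. For the other genes it ran from 0.27 (Msmo1) to 0.44 (Sqle). The part of the index in the shared variation and in the divergence of Fdft1 was not tested. Correlations with the mean of the proliferation list ran from 0.48 for Hmgcs1 to 0.75 for Sqle and Msmo1. Those with the macrophage mean ran from -0.59 for Cyp51 to -0.02 for Lss, and with the skeletal muscle mean from -0.62 for Sqle to -0.21 for Fdft1.

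**Figure D4:**
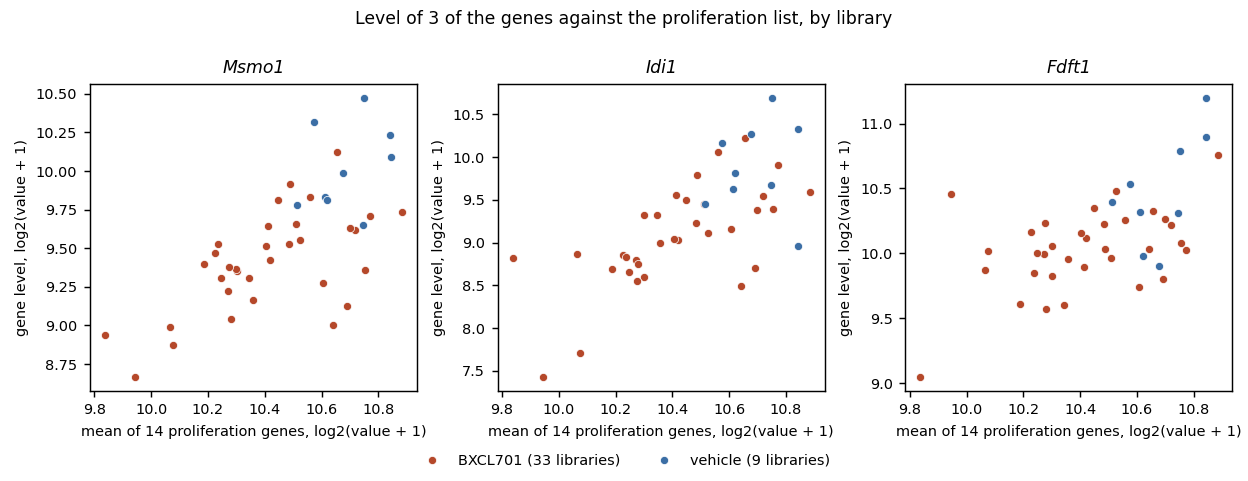
Level of Msmo1, Idi1 and Fdft1 in log2(value + 1) against the mean of the 14 proliferation genes on the same scale, 1 point per library, for 33 BXCL701 and 9 vehicle libraries. Vehicle points lie toward the right, and not all lie high. For Fdft1, vehicle replicates 2 and 3 of day 7 (9.90 and 9.98) lie at the height of many BXCL701 points. So does vehicle replicate 2 of day 1 for Idi1 (8.96). Within groups the correlations were 0.75 for Msmo1, 0.69 for Idi1 and 0.50 for Fdft1.

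Among the 10 genes outside the 8 whose deviations were most like those of the 8 together were Rrm2 (Pearson correlation 0.890), Ckap2l (0.887), Ccnb1 (0.876), Pbk (0.873), Pole2 (0.859), Nek2 (0.858), Prc1 (0.853), 4930579G24Rik (0.843) and Racgap1 (0.843), over 42 libraries and 16605 genes ranked. Ccnb1 is also in the proliferation list. The most similar sterol gene outside the 8 was Stard4, at rank 42 (0.797), followed by Sc5d (0.784), which encodes a late desaturase of the route. Abcg1 (-0.685), Apoe (-0.649) and Scap (-0.646) had the most negative correlations among the sterol genes, and Fdps was at 0.273.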

How the data were processed

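Whole-tumour RNA of 42 mice in 14 groups of 3 was sequenced. The tools Trimmomatic 0.36 and Bowtie 0.12.9 and the build GRCm38 were named, per the submitters' processing notes. The sources used here do not give the quantifier, annotation or scaling. The deposited table named as counts holds values that are not whole numbers and was treated as a signal, reads scaled per library by the authors, so no count test was run. A deposited log2 FPKM table gave levels per length and 1 alternative. A further table repeated its values (largest difference 0). Columns belonging to no listed sample numbered 0.

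The filter on low values asked for 10 or more in 3 or more libraries and left 16613 of 47729 genes. A linear model on log2(value + 1) with 14 group coefficients and 28 residual degrees of freedom was fitted with limma 3.58.1 in R 4.3.3 (intensity trend, robust), with Benjamini-Hochberg adjustment over all genes within each comparison. The log2(value + 1) scale understates differences of low genes. Each harvest hour had equal weight where hours were pooled. The fit was tested on simulated data with independent noise for each gene and library. Those data held no trend with transcript length and no variation shared between genes, so that test cannot show how the fit handles either. Positions are from GENCODE M21, which held 47310 of the 47729 gene identifiers, and promoter sequences from RefSeq.

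The 8 genes, the lists and the comparisons were chosen with earlier results of these data known. From the other sterol lists, genes past the threshold were named by rule, and further genes (Dhcr7, Stard4, Mylip, Srebf2, Scap, Fasn, Apoe, Nr1h3, Sc5d) were named after their values were seen. The 10 most similar genes were taken by correlation. A few genes are not reported here by name, and group counts and medians include them. Each library came from a separate mouse.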

Additional observations from a re-analysis of the deposited data

How the results depend on the processing

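No paired analysis was possible because the replicate numbers were given in record order and pair no tumours across groups. Over 10 alternatives and 5 BXCL701 versus vehicle comparisons, 393 of 400 values of the 8 genes were lower in BXCL701 tumours. With 1 library left out, 765 of 768 values were lower. These values are refits of the same 8 genes on shared libraries, so they do not repeat the result independently. In the main fit, 46.5% to 54.1% of all genes were lower in these comparisons. Median-of-ratios factors and a pseudocount of 5 kept the number of the 8 genes called. Each number of the 8 called is followed by the number of all genes called in that fit. At 0 h on days 7 and 14 (1 and 85) it was 0 (33) without the filter, 0 (1) with the libraries of the comparison alone, 5 (613) with the transcript-length covariate, 0 (3) without the 4 libraries of extreme index, 0 (7) with the proliferation covariate and 0 (6) with the macrophage covariate. On day 14 (1 and 547) it was 0 (1) with the libraries alone, 2 (794) in the log2 FPKM table, 3 (537) with keratinocyte, muscle and adipocyte covariates, 5 (2967) with the index, 3 (1018) without the 4 libraries and 0 (83) with the macrophage covariate. For the 3 days together (1 and 69) it was 2 (86) in the log2 FPKM table, 4 (123) with the 3 tissue covariates, 6 (575) with the index, 0 (6) with the proliferation covariate and 0 (129) with the macrophage covariate. Leaving out single libraries gave 0 to 3 called genes at 0 h, 0 to 4 on day 14 and 1 to 7 for the 3 days together, where the number moved without BXCL701 day 7 8 h replicate 3 to 2 (69), without vehicle day 14 replicate 3 to 7 (712) and without BXCL701 day 14 16 h replicate 2 to 3 (102). Day 7, day 1 and the 5 comparisons within a treatment had 0 of the 8 genes called in every alternative run. Other genes were called in some of these fits. There were 1018 for vehicle day 14 versus day 1 without vehicle day 14 replicate 3. For BXCL701 8 h versus 0 h there were 72 without BXCL701 day 14 8 h replicate 2.

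With the proliferation covariate the sign turned for Sqle at 0 h (0.082), Fdft1 on day 7 (0.058), and Hmgcs1 (0.032) and Idi1 (0.0014) on day 1. With the macrophage covariate it turned for Sqle (0.15) and Cyp51 (0.075) on day 14 and Hmgcs1 on day 1 (0.14). With 1 library left out, Hmgcs1 on day 1 ranged from -0.41 to 0.039 and Fdft1 on day 7 from -0.39 to 0.10. The cause was not tested. The 4-library, proliferation and macrophage settings and the 3-day comparison were chosen after seeing the data. The difference between days 14 and 7 at 0 h and the single harvest groups were not recomputed under the alternatives. The read depth is unknown, so no counting error is given.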
